A study of Mus musculus with 12 samples.

Results

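Voltage-gated sodium channels carry the inward current that starts and spreads the action potential, and each channel is built on 1 large pore-forming alpha subunit encoded by an Scn gene. The genes described here are the 8 alpha subunit genes listed under the symbols Scn1a, Scn2a1, Scn3a, Scn7a, Scn8a, Scn9a, Scn10a and Scn11a, chosen by name from 24490 genes measured in mouse dorsal root ganglia (DRG). A DRG holds the cell bodies of sensory neurons, among them the small-diameter nociceptors that detect painful stimuli and the large-diameter neurons that serve touch and limb position, together with satellite glia, Schwann cells and connective tissue. Sensory neurons are known for using channels that tetrodotoxin blocks, encoded among others by Scn1a, Scn8a and Scn9a, side by side with the tetrodotoxin-resistant channels encoded by Scn10a and Scn11a, which are typical of nociceptors. The protein made from Scn7a is an atypical, sodium-sensing member of the family that is known from glia as well as from neurons.

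PolyA-selected RNA was sequenced from 12 samples of DRG taken at all spinal levels of adult male C57Bl/6 mice, with 4 samples in each of 3 groups. Intact ganglia were frozen whole (1 mouse per sample). Dissociated, unsorted ganglia were digested with dispase, collagenase and DNAse, triturated, filtered and centrifuged before freezing (2 mice per sample). For the MACS-sorted group (8 mice per sample), dissociated cells were incubated with biotinylated antibodies against non-neuronal cells and magnetic beads, and the cells that a column did not retain were collected. The labels name no other treatment or genotype. The mice of a sample were pooled where there was more than 1, and neurons were never selected by a marker of their own. A single mRNA level per sample cannot tell fewer cells of a type from less RNA per cell, and this holds for each comparison given here.

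Expression was given in FPKM, fragments scaled by transcript length and by the total of mapped fragments, which allows levels to be set side by side between genes. The estimated depth was 13900000 to 19800000 fragments per sample. Intact replicate 1 stood apart from its group. The median squared log2 difference between it and the other intact samples was 17.6 to 19.8 times that of counting alone, against 2.24 to 2.56 times among the other intact samples, and its summed skeletal muscle markers were at 2590.5 FPKM against 14.0 to 57.7 FPKM. The summed pan-neuronal markers of intact replicate 1, at 3774.7 FPKM, lay within the 3661 to 3912 FPKM of the other intact samples. The single markers in this sum differed in direction. Tubb3, Elavl3, Elavl4, Snap25, Syt1, Avil and Isl1 had their lowest intact value in replicate 1. Uchl1 and Stmn2 had their highest intact value there, and Gap43 lay between. The small-diameter nociceptor markers of intact replicate 1 were higher in sum (3454 against 2337 to 2575 FPKM). Its large-diameter neuron markers were lower in sum (1280 against 1417 to 1543 FPKM). Unsorted replicates 1 and 2 were the pair most alike, at 1.5 times counting alone, and were kept as separate samples. Among MACS-sorted samples, replicates 3 and 4 had the highest summed red blood cell markers (12538 and 15360.2 FPKM, against 1678 and 2532 FPKM in replicates 1 and 2). These sums hold both of the 2 entries listed for Hba-a2. Sorted replicate 4 had the highest summed Schwann cell, satellite glial, fibroblast, endothelial and macrophage markers of its group.

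The members lie in 2 clusters and 1 single locus of the mouse genome (mm10). Scn10a (chr9:119608456-119719032) and Scn11a (chr9:119753765-119825456) sit side by side on the minus strand of chromosome 9, with 34.7 kb between them. Chromosome 2 carries Scn3a, Scn2a1, Scn1a, Scn9a and Scn7a in this order within 1328 kb. Of these, Scn1a (chr2:66270782-66440837), Scn9a (chr2:66480081-66634962) and Scn7a (chr2:66673426-66784910) are direct neighbours on the minus strand, 39.2 kb and 38.5 kb apart, whereas Scn2a1 (chr2:65670445-65767447) is on the plus strand and Scn3a (chr2:65457118-65567492) on the minus strand. Scn8a (chr15:100870645-101045938, plus strand) is alone on chromosome 15. Their longest annotated transcripts have 25 exons in Scn7a, 28 in Scn10a and 27 in each of the others.

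The 250 bases before the transcription start of the 4 members that were called higher or lower between MACS-sorted and unsorted samples are given as read from RefSeq windows on GRCm38.p6, whose chromosomes are those of mm10. They are given 5′ to 3′ on the gene's own strand, and capitals mark CG dinucleotides.
Scn10a (chr9:119719033-119719282, minus strand): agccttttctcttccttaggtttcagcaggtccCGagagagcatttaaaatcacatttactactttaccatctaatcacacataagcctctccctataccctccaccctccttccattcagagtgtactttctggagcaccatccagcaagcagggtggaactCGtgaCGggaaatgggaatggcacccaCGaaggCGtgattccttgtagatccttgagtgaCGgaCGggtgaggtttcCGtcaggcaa
Scn11a (chr9:119825457-119825706, minus strand): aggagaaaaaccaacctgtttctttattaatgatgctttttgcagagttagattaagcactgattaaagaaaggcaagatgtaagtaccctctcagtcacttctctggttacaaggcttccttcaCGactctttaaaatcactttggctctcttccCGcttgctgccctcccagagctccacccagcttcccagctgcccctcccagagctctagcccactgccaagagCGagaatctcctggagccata
Scn8a (chr15:100870395-100870644, plus strand): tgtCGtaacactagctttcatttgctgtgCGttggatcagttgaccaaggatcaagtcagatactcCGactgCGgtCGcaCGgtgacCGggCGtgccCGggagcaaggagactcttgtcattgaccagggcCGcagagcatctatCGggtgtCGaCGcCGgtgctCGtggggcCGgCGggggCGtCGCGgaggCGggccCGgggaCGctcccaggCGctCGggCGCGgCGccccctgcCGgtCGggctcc
Scn1a (chr2:66440838-66441087, minus strand): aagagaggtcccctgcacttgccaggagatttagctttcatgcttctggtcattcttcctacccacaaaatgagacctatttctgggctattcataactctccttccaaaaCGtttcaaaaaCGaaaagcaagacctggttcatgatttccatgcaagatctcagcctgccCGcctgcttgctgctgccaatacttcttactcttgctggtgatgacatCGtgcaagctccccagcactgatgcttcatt

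The windows of Scn10a, Scn11a and Scn1a held 8, 3 and 4 CG dinucleotides. That of Scn8a held 30, a number reached by 5.95% of the 32817 windows of this length, whose median was 6. Its GC content was 68.0%, higher than in 87.8% of windows, against 49.6% in Scn10a, 48.0% in Scn11a and 46.8% in Scn1a. Scn1a and Scn8a, the members called lower in sorted samples, thus had unlike CG content. The windows of Scn9a and Scn7a, not printed, held 5 and 3 CG dinucleotides at 54.4% and 53.2% GC. Of 4 short motifs searched on both strands, TATAAA (in 12.4% of all windows), CCAAT (33.8%), GGGCGG (32.7%) and TGTGGT (14.0%), the 4 windows held a single CCAAT, in Scn1a. Windows that began at the deposited start were found for 6 of the 8 members, the others being Scn2a1 and Scn3a. Scn8a and Scn9a each have 2 listed starts, and only the window at the 5′ end of the deposited locus was read.

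In every group Scn10a, which encodes Nav1.8, had the highest mean of the 8 genes and Scn3a the lowest. Intact ganglia had 143 ± 28.5 FPKM of Scn10a, 93.5 ± 17.9 FPKM of Scn7a, 92.5 ± 14.1 FPKM of Scn11a and 51.6 ± 12.2 FPKM of Scn9a (SD, n = 4). Far below these were Scn1a at 17.2 ± 5.76 FPKM, Scn8a at 16.5 ± 6.12 FPKM, Scn2a1 at 2.20 ± 0.54 FPKM and Scn3a at 0.925 ± 0.215 FPKM. In this order the sample ranges of Scn10a and Scn7a, of Scn7a and Scn11a and of Scn1a and Scn8a overlapped, and those of the other neighbours did not. Unsorted ganglia had the order Scn10a, Scn11a, Scn7a, Scn9a, Scn8a, Scn1a, Scn2a1, Scn3a, with no overlap between neighbours. In MACS-sorted samples Scn9a stood above Scn7a with overlapping ranges, as did Scn10a and Scn11a at the top, and the rest of the order was that of unsorted ganglia. All 4 samples were above 5 FPKM for 6 of 8 members in intact ganglia, 6 of 8 in unsorted ganglia and 5 of 8 in MACS-sorted samples, against 31.4%, 32.2% and 29.2% of all genes.

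**Figure D1:**
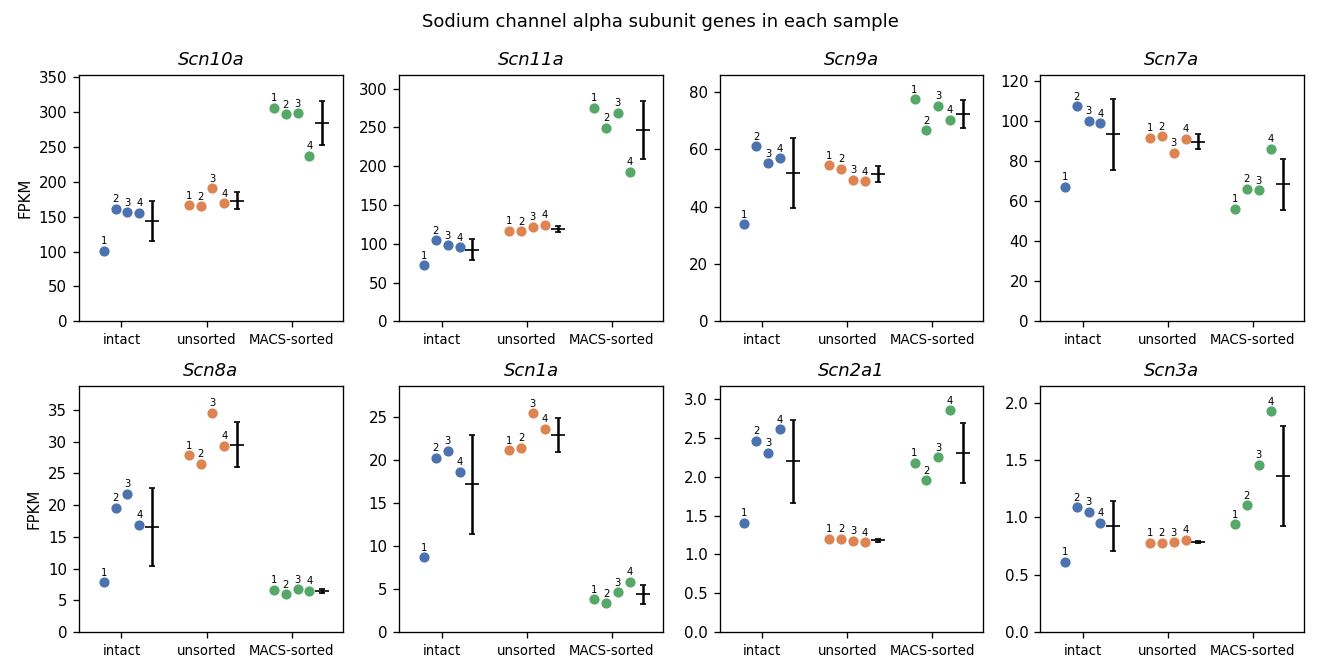
FPKM (y axis, linear, a separate scale for each gene) of the 8 sodium channel alpha subunit genes in each of the 12 samples, with replicate numbers beside the points and the group mean and SD as bars. Scn10a and Scn11a were highest in the 4 MACS-sorted samples, Scn1a and Scn8a were lowest there, and intact replicate 1 was the lowest intact sample in all 8 panels.

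The comparison of MACS-sorted with unsorted samples asks how the RNA of dissociated ganglia differs after sorting. The antibodies were directed against non-neuronal cells, and the paper reports that sorting also enriched small neurons and neurons positive for a Nav1.8 reporter. Loss of non-neuronal cells and a change in which neurons remain cannot be told apart here. The tetrodotoxin-resistant pair Scn10a and Scn11a rose, by 1.65-fold and 2.06-fold in mean FPKM, and Scn1a and Scn8a fell to 0.192 and 0.219 of their unsorted means. By the 3 criteria for a call, a limma adjusted p under 0.05, a log2 ratio of means beyond 0.5 and more than 5 FPKM on average in whichever group was higher, 2 of 8 members were called higher, against 8.15% of the 12038 genes tested, and 2 were called lower, against 12.5%. The median log2 fold change of the 8 members was 0.58, and that of all genes tested was -0.041. By the adjusted p alone, 4 members were higher and 3 lower, where 18.8% and 27.7% of all genes were. For 5 members every MACS-sorted sample exceeded every unsorted sample, and for 2 members it was the reverse, against 18.4% and 27.8% of all genes.

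MACS-sorted replicates 1 to 4 had 306, 297, 298 and 237 FPKM of Scn10a, and unsorted replicates 1 to 4 had 166, 165, 191 and 169 FPKM. Every sorted sample was higher than every unsorted one, and the lowest sorted sample was replicate 4. The log2 fold change was 0.71 (standard error 0.10, 95% interval 0.50 to 0.93, limma with Benjamini-Hochberg adjustment, adjusted p = 2.4e-04). When samples were rescaled to a list of pan-neuronal genes, which moved the median of all genes to -0.28, the log2 fold change of Scn10a was 0.48 and it was no longer called, while that of Scn11a was 0.79 and its call held.

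Scn11a, which encodes the persistent-current channel Nav1.9, had 275, 249, 269 and 193 FPKM in the sorted and 117, 116, 122 and 124 FPKM in the unsorted samples. The groups did not overlap, and replicate 4 was again the lowest sorted sample. Its log2 fold change was 1.03 (standard error 0.11, 95% interval 0.78 to 1.27, limma with Benjamini-Hochberg adjustment, adjusted p = 5.4e-05). Scn11a rose more than its chromosomal neighbour. The ratio of Scn11a to Scn10a was 0.899, 0.841, 0.901 and 0.815 in sorted and 0.701, 0.704, 0.638 and 0.734 in unsorted samples, a 1.25-fold difference in the mean ratio that no scaling factor per sample can change (exact two-sided permutation test, p = 0.0286, the smallest that 4 against 4 samples allow, Benjamini-Hochberg adjusted over 6 ratio tests p = 0.0343).

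Scn9a encodes Nav1.7, the channel whose loss abolishes pain in people. It stood at 77.4, 66.5, 75.1 and 70.2 FPKM in sorted and at 54.3, 53.1, 49.3 and 48.8 FPKM in unsorted samples. The sorted samples were again all higher. Its log2 fold change was 0.49 (standard error 0.07, limma with Benjamini-Hochberg adjustment, adjusted p = 3.6e-04), and a log2 ratio of means of 0.49 left it just under the limit of 0.5. It was called higher when red blood cell genes were removed, with median-ratio size factors, with quantile normalization and without MACS-sorted replicate 2 or 4, unsorted replicate 1 or 2.

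Scn8a encodes Nav1.6, the main channel of nodes of Ranvier in myelinated axons. Its level was 6.67, 5.95, 6.76 and 6.53 FPKM in MACS-sorted samples and 27.8, 26.5, 34.5 and 29.3 FPKM in unsorted samples. The gap between the groups was larger than the range within either. The log2 fold change was -2.17 (standard error 0.09, 95% interval -2.37 to -1.96, limma with Benjamini-Hochberg adjustment, adjusted p = 3.6e-07). The ratio of Scn8a to Scn9a, the tetrodotoxin-sensitive channel gene with the highest level, went from 0.512, 0.499, 0.700 and 0.600 in unsorted samples to 0.0862, 0.0895, 0.0900 and 0.0930 in sorted samples. This ratio was thus 0.157 times its unsorted value (exact two-sided permutation test, p = 0.0286, adjusted p = 0.0343).

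Scn1a encodes Nav1.1, which is found mainly in larger, myelinated sensory neurons. It had 3.82, 3.35, 4.65 and 5.83 FPKM in MACS-sorted samples against 21.2, 21.4, 25.5 and 23.6 FPKM in unsorted samples. The groups were far apart, and sorted replicate 4 had the highest value of its group. The log2 fold change was -2.38 (standard error 0.16, 95% interval -2.73 to -2.03, limma with Benjamini-Hochberg adjustment, adjusted p = 3.4e-06). With sorted replicates 3 and 4 both left out, an alternative chosen after the data were seen, the log2 fold changes were -2.64 for Scn1a, -2.20 for Scn8a, 0.80 for Scn10a and 1.13 for Scn11a.

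Scn7a was 56.2, 66.4, 65.6 and 86.4 FPKM in sorted and 91.7, 92.5, 84.2 and 91.4 FPKM in unsorted samples. Sorted replicate 4 was above unsorted replicate 3, so that the groups overlapped. The log2 fold change was -0.41 (standard error 0.12, 95% interval -0.67 to -0.14, limma with Benjamini-Hochberg adjustment, adjusted p = 0.017), and Scn7a was not called. Without sorted replicate 4 it was called lower, with a log2 fold change of -0.52. The 8 Schwann cell markers summed to 1199.6 FPKM in that sample and to 518 to 591 FPKM in the other sorted samples. Satellite glial markers summed to 193 FPKM there (89.7 to 128 FPKM in the others) and fibroblast markers to 32.4 FPKM (7.62 to 13.9 FPKM). Endothelial, macrophage and red blood cell sums were also highest in that sample. Its pan-neuronal, small-diameter nociceptor and large-diameter neuron sums were the lowest of the sorted group. The part of these in the level of Scn7a was not tested.

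The embryonic and brain-type channels were low throughout. Scn2a1, listed in current annotation as Scn2a, had 2.18, 1.95, 2.25 and 2.86 FPKM in sorted and 1.20, 1.20, 1.18 and 1.16 FPKM in unsorted samples, without overlap. It rose by a log2 fold change of 0.90 (standard error 0.16, limma with Benjamini-Hochberg adjustment, adjusted p = 0.0015), under the level needed for a call. Scn3a, which is known to return in injured sensory neurons, had 0.938, 1.11, 1.46 and 1.92 FPKM in sorted and 0.776 to 0.804 FPKM in unsorted samples. Its difference just missed the threshold, with a log2 fold change of 0.67 (standard error 0.25, limma with Benjamini-Hochberg adjustment, adjusted p = 0.052). This depended on the processing, as Scn3a passed in 7 of the 11 alternative settings of the limma fit that tested it (adjusted p from 7.7e-04 to 0.19). With single samples left out, the adjusted p from limma ran from 0.026 to 0.12 over 7 settings. Without sorted replicate 4, its highest sample, Scn3a fell under the mean of 1 FPKM needed for a test. With an unsorted mean of 0.786 FPKM, it reached that mean only through the sorted samples. Estimated fragments behind Scn3a were 96 to 269 per sample, against 10900 to 33700 for Scn10a.

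**Figure D2:**
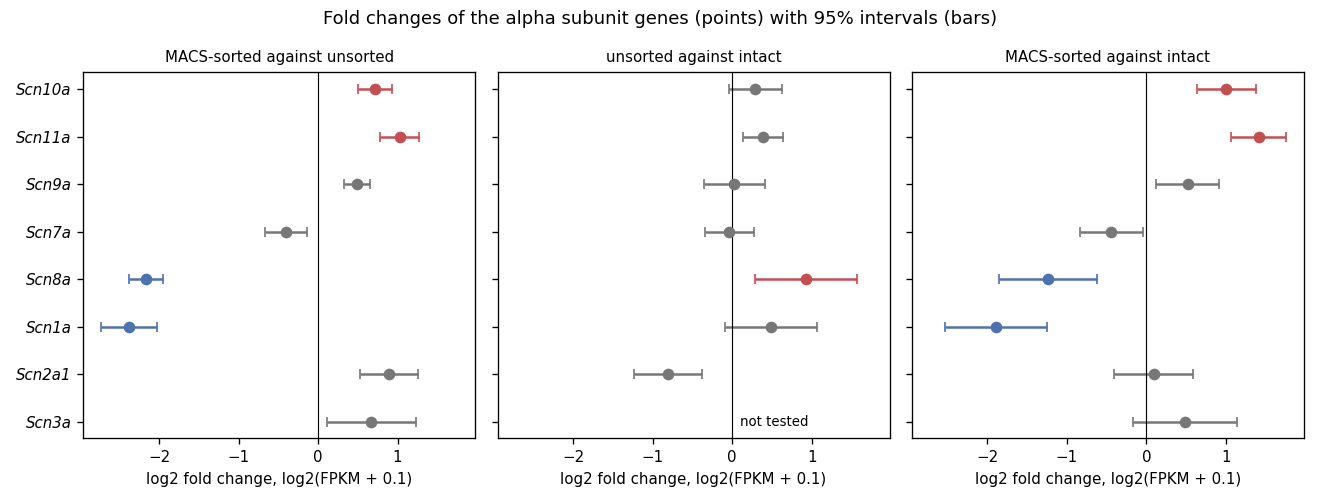
Log2 fold change on the log2(FPKM + 0.1) scale (x axis) of each alpha subunit gene in the 3 comparisons, with 95% intervals from limma as bars, called genes in red (higher) or blue (lower) and the rest in grey. In MACS-sorted against unsorted samples Scn1a and Scn8a were at -2.38 and -2.17 and Scn11a at 1.03, and Scn3a was not tested in unsorted against intact ganglia.

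Markers of cell types moved in the same comparison. Of 8 markers of large-diameter neurons, 7 were called lower and their sum was 404 to 577 FPKM in sorted against 2069.8 to 2482 FPKM in unsorted samples, while 9 of 11 small-diameter nociceptor markers were called higher and 1 lower. Of 6 satellite glial markers, 5 were called lower, and their sum fell from between 2099.5 and 2652 FPKM to between 89.7 and 193 FPKM. Slc1a3 and Kcnj10, the lowest of this list, were at or below 0.206 FPKM in every sorted sample. Glul, the highest, stayed at 82.3 to 111 FPKM in sorted against 138 to 160 FPKM in unsorted samples. Schwann cell markers were lower in 7 of 8 cases, with sums of 1929 to 3189 FPKM in unsorted and 518 to 1199.6 FPKM in sorted samples, and Mbp reached 578 FPKM in sorted replicate 4. Red blood cell markers were called higher in all 7 entries tested, of which Hba-a2 made up 2. Of the fibroblast markers, 5 of 6 were called lower, and no endothelial marker passed the adjusted p. Of 6 macrophage markers only 2 were tested, and both fell by the adjusted p, with a median log2 fold change of -4.59, at levels too low for a call. Of 10 pan-neuronal markers, 2 were called higher and 1 lower. The part of these cell types in the values of the sodium channel genes was not tested.

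In sum the 8 genes reached 686 ± 57.7 FPKM in MACS-sorted, 488 ± 14.0 FPKM in unsorted and 418 ± 84.6 FPKM in intact samples (SD, n = 4). Scn10a and Scn11a together made up 71.2% to 79.8% of this sum in sorted samples, 59.0% to 61.5% in unsorted samples and 55.6% to 59.1% in intact ganglia. Scn1a and Scn8a together took 1.35% to 2.05%, 10.1% to 11.8% and 5.64% to 9.40%. Sorted samples thus had more RNA for tetrodotoxin-resistant channels as a share of the family, and no sorted sample overlapped an unsorted or intact one in either share. The 5 tetrodotoxin-sensitive members Scn1a, Scn2a1, Scn3a, Scn8a and Scn9a together accounted for a mean of 12.7% in sorted, 21.6% in unsorted and 20.9% in intact samples. Among them Scn9a took a mean of 10.6%, 10.5% and 12.3% of the whole family. The share of Scn7a was 10.2%, 18.4% and 22.4%, and in sorted samples it ran from 7.72% to 14.3%. These shares add to a fixed total, so a rise of one entails a fall of others.

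**Figure D3:**
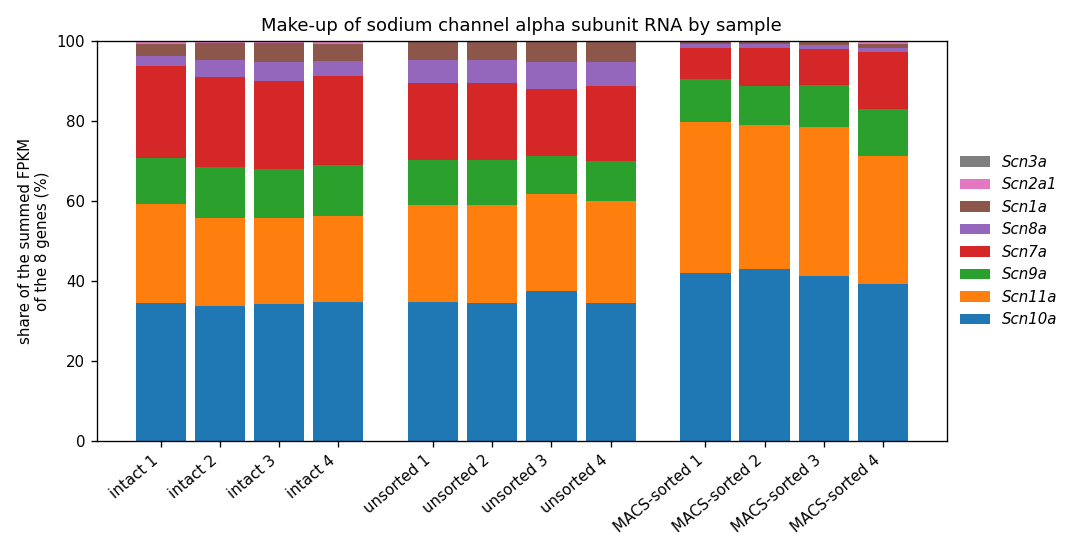
Share of the summed FPKM of the 8 alpha subunit genes taken by each gene (y axis, percent) in each of the 12 samples (x axis). Scn10a and Scn11a, the lowest 2 layers, reached 71.2% to 79.8% in the MACS-sorted samples, and the layers of Scn8a and Scn1a were thin there.

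The comparison of unsorted with intact ganglia asks what differs after the whole dissociation procedure. The paper states that dissociation lyses some cells, larger neurons among them, so loss of cells and change of RNA cannot be told apart. Scn8a was called higher, with a mean ratio of 1.79, and no member was called lower, against 4.29% and 2.76% of the 12392 genes tested. By the adjusted p alone 2 members, Scn8a and Scn11a, were higher and 1, Scn2a1, was lower, against 14.8% and 7.79% of all genes. Scn3a did not reach the mean of 1 FPKM needed for a test. Unsorted samples lay above all intact samples for Scn1a, Scn8a, Scn10a and Scn11a and below them for Scn2a1, that is 4 and 1 members, against 20.8% and 12% of all genes.

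Intact replicates 1 to 4 had 7.82, 19.6, 21.7 and 16.9 FPKM of Scn8a, all below the lowest unsorted value of 26.5 FPKM. Intact replicate 1 had less than the other intact samples by far, and the part of its muscle RNA in this was not tested. The log2 fold change of Scn8a was 0.93 (standard error 0.28, 95% interval 0.29 to 1.57, limma with Benjamini-Hochberg adjustment, adjusted p = 0.045). Without intact replicate 1 it was 0.61 with an adjusted p of 0.0030 from the same limma fit, and the call was lost on leaving out intact replicate 2 or 4 or any unsorted replicate, with adjusted p of 0.052 to 0.12. The ratio of Scn8a to Scn9a was 0.232, 0.321, 0.395 and 0.297 in intact samples and thus 1.87-fold higher after dissociation (exact two-sided permutation test, p = 0.0286, adjusted p = 0.0343). Of the large-diameter neuron markers, 4 of 8 were called higher in the same comparison and none lower, their sum being 1280.0 to 1543 FPKM in intact ganglia. Other lists moved as well, with 4 of 6 endothelial and 3 of 6 satellite glial markers called higher, and 5 of 6 fibroblast, 2 of 5 tested macrophage, 1 of 8 Schwann cell and 6 of 6 skeletal muscle markers called lower. The part of these cell types in the level of Scn8a was not tested.

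Scn2a1 had 1.41, 2.46, 2.31 and 2.61 FPKM in intact samples, all above the unsorted values of 1.16 to 1.20 FPKM. It fell by 0.81 on the log2 scale (standard error 0.19, limma with Benjamini-Hochberg adjustment, adjusted p = 0.019), under the level needed for a call. Scn11a was 72.2, 104, 97.9 and 95.6 FPKM in intact ganglia and rose by a log2 fold change of 0.38 (standard error 0.11, limma with Benjamini-Hochberg adjustment, adjusted p = 0.038), which lies under the limit for a call. This p held without intact replicate 1 or 2 and rose to between 0.055 and 0.097 as each of the others was left out. That of Scn2a1 was 0.053 without intact replicate 4. The fall of Scn2a1 here and its rise in sorted against unsorted samples rest on the same 4 unsorted samples.

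For the other members no difference passed the threshold. Scn10a was 101, 161, 156 and 155 FPKM in intact ganglia, and its log2 fold change of 0.29 had a 95% interval of -0.04 to 0.63 (limma with Benjamini-Hochberg adjustment, adjusted p = 0.18). Scn1a had 8.69, 20.3, 21.1 and 18.7 FPKM in intact ganglia, with a log2 fold change of 0.49 and an interval of -0.09 to 1.07. For Scn7a the log2 fold change was -0.03 with an interval of -0.35 to 0.28, and for Scn9a it was 0.03 with an interval of -0.36 to 0.41. Both depended on intact replicate 1, in which Scn7a was 67.3 FPKM against 99.0 to 108 FPKM in the other intact samples and Scn9a 33.8 FPKM, where the intact median was 55.9 FPKM. Without this sample, Scn7a was at -0.19 (limma with Benjamini-Hochberg adjustment, adjusted p = 0.023) and Scn9a at -0.16 (adjusted p = 0.055). The ratio of Scn11a to Scn10a was 0.717, 0.648, 0.627 and 0.616 in intact samples, a difference from unsorted samples that did not pass (exact two-sided permutation test, p = 0.257).

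MACS-sorted and intact samples, which differ in both dissociation and sorting and share samples with both comparisons above, gave the same 4 calls as sorted against unsorted samples. Scn10a and Scn11a were called higher, 2 of 8 members against 7.54% of the 12234 genes tested, and Scn1a and Scn8a lower, 2 of 8 against 10.7%. By the adjusted p alone 3 members were higher and 2 lower (14.1% and 20.6% of all genes), and the same numbers had no overlap between groups (15.6% and 21.9%). Mean FPKM was 1.98-fold higher for Scn10a and 2.66-fold higher for Scn11a, with log2 fold changes of 1.01 (standard error 0.17, adjusted p = 0.0013) and 1.41 (standard error 0.15, adjusted p = 1.1e-04) by limma with Benjamini-Hochberg adjustment. Scn1a was at 0.257 and Scn8a at 0.393 of the intact mean, with log2 fold changes of -1.89 (standard error 0.29, adjusted p = 8.0e-04) and -1.24 (standard error 0.28, adjusted p = 0.0069) by the same test. Without intact replicate 1 these 4 log2 fold changes were 0.84, 1.30, -2.19 and -1.56.

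Scn9a passed the adjusted p in this comparison without being called (limma with Benjamini-Hochberg adjustment, adjusted p = 0.044). Its log2 ratio of means (72.3 against 51.6 FPKM) stayed under the limit of 0.5. For Scn9a the log2 fold change from limma was 0.52 and lay between 0.33 and 0.61 as single samples were left out. Its adjusted p passed without intact replicate 1 or 2 and was 0.056 to 0.11 as each of the others was left out. Scn7a was at -0.44 with a 95% interval of -0.83 to -0.05 and missed the threshold (adjusted p = 0.079, limma with Benjamini-Hochberg adjustment). It was called lower without intact replicate 1, at -0.59. For Scn2a1 and Scn3a the intervals of the log2 fold change, -0.40 to 0.59 and -0.17 to 1.14, held 0. The ratio of Scn11a to Scn10a was 1.33-fold higher in sorted than in intact samples and that of Scn8a to Scn9a 0.293 times as high (exact two-sided permutation tests, p = 0.0286 and adjusted p = 0.0343 for both).

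Sodium channel alpha subunits work with partner proteins, of which 18 genes were listed: the auxiliary beta subunits, intracellular fibroblast growth factor homologues, anchors of the channel at the axon initial segment and node, and ubiquitin ligases and trafficking proteins. Between MACS-sorted and unsorted samples, 4 of the 17 tested partners were called higher and 9 lower, and their median log2 fold change was -0.50. The beta subunit gene Scn4b, at 22.7 to 28.1 FPKM in sorted against 112 to 128 FPKM in unsorted samples, fell by 2.24 on the log2 scale. Scn3b was at 38.5 to 47.4 FPKM in sorted and 23.7 to 27.9 FPKM in unsorted samples, a log2 fold change of 0.73. Scn2b had 50.1, 60.3, 18.8 and 43.9 FPKM in sorted replicates 1 to 4 and 15.1 to 16.8 FPKM in unsorted samples, a log2 fold change of 1.33 (limma with Benjamini-Hochberg adjustment, adjusted p = 0.0052). Replicate 3 was thus close to the unsorted level for Scn2b, but not for the members.

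RNA levels of genes for proteins that hold channels at nodes and initial segments moved unequally. Nfasc, the cell adhesion molecule neurofascin, had 4.98 to 6.35 FPKM in sorted and 26.9 to 34.5 FPKM in unsorted samples and fell by 2.38 on the log2 scale. Contactin 1 (Cntn1) and the spectrin gene Sptbn4 were also called lower by limma, with log2 fold changes of -2.09 and -0.50. Ankyrin G (Ank3) had a log2 fold change of 0.48 and was not called, as its log2 ratio of means was under 0.5. Every sorted sample (37.3 to 43.1 FPKM) was nonetheless above every unsorted sample (27.2 to 29.4 FPKM) for Ank3. Pdzd2, a PDZ domain protein known to bind Nav1.8, fell by 3.13. Among fibroblast growth factor homologues, Fgf13 was called higher, at 0.61, Fgf11 was called lower, at -2.34, Fgf12 was at -0.23, and Fgf14 was under the level for a test. The ubiquitin ligase genes went opposite ways, with Nedd4l called higher at 0.73 and Nedd4 called lower at -0.52. S100a10 and Dpysl2, which act in channel trafficking, were at 0.27 and -0.09 and did not pass. Of the same 17 genes, 3 were called higher, Scn4b and Pdzd2 among them, and 1 lower (Scn2b, from 33.1 to 35.9 FPKM in intact ganglia) in unsorted against intact samples, where the list had a median of 0.23. In sorted against intact samples 4 were called higher and 6 lower.

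**Figure D4:**
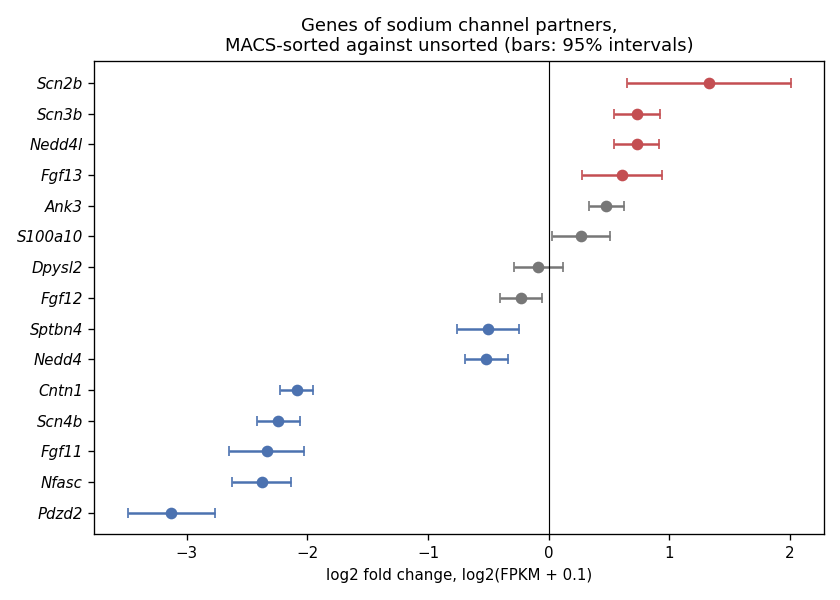
Log2 fold change on the log2(FPKM + 0.1) scale (x axis) of genes of sodium channel partners in MACS-sorted against unsorted samples, with 95% intervals from limma as bars, called genes in red (higher) or blue (lower) and the rest in grey. Scn2b stood highest at 1.33 with the widest interval, and Pdzd2 lowest at -3.13.

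Scn4a, an alpha subunit gene outside the members that is known from skeletal muscle, stayed under the 5 FPKM needed for a call. It could thus not be called, and its adjusted p from limma passed in none of the 3 comparisons. Every MACS-sorted sample (0.430 to 1.03 FPKM) was below every unsorted sample (1.27 to 1.49 FPKM). Scn4a had 2.24 FPKM in intact replicate 1 and 1.06 to 1.39 FPKM in the other intact samples.

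The genes whose log2 levels followed each member most closely over the 12 samples were taken from 8262 or 8263 genes that averaged 5 FPKM or more. Since the 12 samples fall into 3 groups, these correlations mostly describe group means. Scn10a was followed by Sema4b, Nckap5l and Mnt (Pearson r 0.99 for each), Scn11a by Nedd4l, Tshz2 and Rgmb, with 0.995 for Nedd4l. For Scn8a the nearest gene was Cntnap1, which encodes a paranodal protein of myelinated axons (r = 0.997), ahead of Myh10 and Acsl6. For Scn1a it was the cell adhesion molecule Nrcam (r = 0.997), ahead of Arap2 and the potassium channel gene Kcna2. Scn9a was nearest to Nav1, which encodes neuron navigator 1 and no sodium channel, at r = 0.979, then Ano3 and Uhrf1bp1l. Scn7a had less close followers, led by Tnpo1 (r = 0.95), then Cep83 and 1700020I14Rik. The low genes Scn2a1 and Scn3a were followed by Pnpla3, Srek1 and Arhgap33 (0.986 to 0.965) and by Gclc, Rbm5 and Epb4.1 (0.949 to 0.932).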

How the data were processed

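RNA of 12 samples (4 intact, 4 unsorted, 4 MACS-sorted) was sequenced from directional, polyA-selected libraries with 100 bp reads. The authors aligned reads to mm10 with TopHat2, merged lanes with SAMtools and deposited FPKM from Cufflinks 2.1.1 (tools per the labels), 1 value per gene and sample for 24490 genes. Read counts were not used here, and the authors' CuffDiff test was replaced. Since alpha subunits are paralogues, reads that fit more than 1 of them may have been shared, and the strand setting of the aligner is not given in the sources used here.

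Groups were compared with limma 3.58.1 (R 4.3.3), two-sided and with a trend of the prior variance on intensity, on log2(FPKM + 0.1) of genes that averaged 1 FPKM or more in the 8 samples compared, with Benjamini-Hochberg adjustment. Fold changes on this scale understate those of low genes. A call needed an adjusted p under 0.05, a log2 ratio of means beyond 0.5 and more than 5 FPKM on average in whichever group was higher. Ratios of members were compared by exact permutation. Errors are SD over samples, and p-values measure the spread between these samples, since how preparations were spread over days is not given in the sources used here. All 8 members are named. So are partners that were called, beta subunits, and the 3 genes most correlated with each member, and other partners and marker genes only beside these. Some listed genes are counted but not reported here by name. Members and lists were chosen with earlier results of these data known.

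The spacing of low FPKM of 5240 single-transcript genes, with fragments of 200 bases assumed, gave the depth, since FPKM carry none. Scripts were tested on simulated data. Alternatives covered pseudocounts, filters, scaling, limits of a call, fits and samples left out.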

Additional observations from a re-analysis of the deposited data

Results flagged for a closer look

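In each group of 4 samples, the gap between an extreme value and its nearest neighbour was compared with the whole range for the 8 members, and 4 of 24 groups passed Dixon's 95% limit, where chance alone passes about 1 in 20. Scn10a had its lowest intact value in replicate 1 (101 FPKM, the others 155 to 161 FPKM), its highest unsorted value in replicate 3 (191 FPKM, the others 165 to 169 FPKM) and its lowest MACS-sorted value in replicate 4 (237 FPKM, the others 297 to 306 FPKM). Scn7a had its lowest unsorted value in replicate 3 (84.2 FPKM, the others 91.4 to 92.5 FPKM). Intact replicate 1 also had the highest summed skeletal muscle markers, MACS-sorted replicate 4 the highest Schwann cell and red blood cell markers of its group, and unsorted replicate 3 the highest large-diameter neuron markers and the lowest Schwann cell markers of its group. The part of these in the values of Scn10a and Scn7a was not tested.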

How the results depend on the processing

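Of 460 alternative values of the members' fold changes, 398 kept their direction and side of the threshold, 35 fell below it, 17 passed it and 10 turned sign. Between MACS-sorted and unsorted samples, 1 member in place of 2 was called higher (Scn11a) when samples were scaled to the pan-neuronal list and with a log2 ratio beyond 1, and the latter also left 1 against intact ganglia. Leaving out single samples gave 2 to 3 members higher and 2 to 3 lower, in both comparisons of sorted samples. Between unsorted and intact samples the 1 call became 0 without a filter, without the intensity trend, with quantile normalization, with pan-neuronal scaling, with a log2 ratio beyond 1 and with unsorted replicates 1 and 2 averaged, and it ranged from 0 to 1 as single samples were left out. With a mean above 1 FPKM as the limit, 1 member (Scn2a1) was called lower. The causes were not tested.

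Signs turned for 3 fold changes, none of which had passed the threshold. For unsorted against intact ganglia, Scn9a was at -0.035 with quantile normalization and -0.172 with pan-neuronal scaling and ranged from -0.164 (without intact replicate 1) to 0.119 as single samples were left out, and Scn7a ranged from -0.185 to 0.040 as single samples were left out (0.040, 0.007 and 0 without intact replicates 2, 3 and 4). For sorted against intact samples, Scn2a1 was at -0.326 with pan-neuronal scaling, -0.052 without sorted replicates 3 and 4, and from -0.099 (without intact replicate 1) to 0.183 as single samples were left out, with -0.011 without sorted replicate 4.

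Samples of equal replicate number did not deviate together (correlations from -0.143 to 0.0671), so the numbers were not taken as pairs. With the number as a block, the limma calls of members were 2 higher and 2 lower in both comparisons of sorted samples and 1 higher and 0 lower in unsorted against intact ganglia, and between sorted and intact samples the adjusted p was 0.069 for Scn9a and 0.041 for Scn7a. Permuting the ratios within the block allows no p below 0.125, so that the differences of 0.316 and 0.408 (Scn11a to Scn10a, sorted against unsorted and intact) and of -2.675, -1.770 and 0.905 (Scn8a to Scn9a, sorted against unsorted and intact, unsorted against intact) could not pass. Nor could they with 3 samples in a group (smallest p 0.0571), where averaging unsorted replicates 1 and 2 gave 0.322, -2.735 and 0.965. Single samples left out gave 0.276 to 0.343 and 0.382 to 0.455 for Scn11a to Scn10a, and -2.741 to -2.578, -1.903 to -1.646 and 0.772 to 1.029 for Scn8a to Scn9a.

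Pan-neuronal scaling moved the median log2 fold change of all genes to -0.275, -0.186 and -0.474 in sorted against unsorted, unsorted against intact and sorted against intact samples, and quantile normalization to 0.104, 0.026 and 0.128. With pan-neuronal scaling the counts over all genes were 464 higher and 2463 lower for sorted against unsorted samples (981 and 1505 as reported), 149 and 1022 for unsorted against intact (531 and 342) and 195 and 3906 for sorted against intact (922 and 1313). A log2 ratio beyond 1 gave 260 and 879, 42 and 123, and 186 and 825. A limit of 1 FPKM gave 2352, 665 and 2206 lower, and 224, 203 and 187 genes were lower in unsorted than intact samples without unsorted replicates 1, 3 and 4. The FPKM carry no depth, so low members such as Scn3a have no interval of counting error.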
